A study of Mus musculus with 4 samples.

Results

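The histone cluster genes of the mouse were followed in single immune cells sorted from mammary tumours. They were taken as every gene whose symbol begins with Hist1h, Hist2h, Hist3h or Hist4h, which gave 67 of the 31053 features counted, and no measured value entered that choice. By protein they comprise 6 linker H1, 18 H2A, 18 H2B, 12 H3 and 13 H4 genes. On GRCm38, 54 of them lie in the Hist1 cluster (chr13:21715763-23934851), 10 in the Hist2 cluster (chr3:96219865-96270132) and 2 in the Hist3 cluster (chr11:58948920-58956830), and Hist4h4 stands alone (chr6:136801553-136804415). All 67 are annotated as protein coding.

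The cells were immune cells that FACS had separated from digested tumours of the mammary gland, and the mice were FVB/NJ, 12 weeks old and of 2 genotypes, Jagged1/PyMT and PyMT. Both carry PyMT, the polyoma virus middle T antigen that causes mammary tumours, and Jagged1, which binds Notch receptors on neighbouring cells, is named in the Jagged1/PyMT genotype alone. The labels give neither the promoter nor the cell type that drives either gene. There were 2 samples a genotype, but both were pooled in 1 count matrix whose barcodes carry no sample name, so each genotype was 1 library. The spread between mice could therefore not be measured, no test was run, and every interval given covers counting error only.

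Core histones H2A, H2B, H3 and H4 form the nucleosome on which DNA is wound, and linker H1 binds the DNA where it enters and leaves. A cell that copies its DNA needs new histones, so most cluster genes are transcribed during S phase, and their RNA ends in a conserved stem-loop instead of a poly(A) tail. Some of these genes also give polyadenylated RNA, including in cells that have left the cycle. The 3′ kit used here starts from poly(A), so the values count captured RNA and cannot be read as all histone RNA of a cell.

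A 16-base stem-loop pattern, with some bases left variable, was found in the annotated 3′ UTR (GENCODE vM21) of 43 of the 67 genes. For each gene the transcript with the longest annotated 3′ UTR was searched. The 13 genes with no annotated 3′ UTR could not show it, nor could Hist1h2af and Hist1h2ah, with 1 and 2 bases. The sites of 6 genes are shown because they share this element but differ in how far the annotated transcript runs past it, with the stem-loop in capitals, 5′ to 3′ along the transcript (GRCm38).
Hist1h2ap: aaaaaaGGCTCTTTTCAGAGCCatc
Hist1h2ab: aacaaaGGCTCTTTTCAGAGCCacccac
Hist1h1c: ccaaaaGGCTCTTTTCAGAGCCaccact
Hist1h1e: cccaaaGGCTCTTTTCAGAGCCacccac
Hist1h4i: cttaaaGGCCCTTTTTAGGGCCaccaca
Hist3h2ba: cccaaaGGCTCTTTTCAGAGCCaccttc
In Hist1h2ap, an H2A gene on the minus strand of chromosome 13, the annotated transcript ends 3 bases after the stem-loop. In Hist1h2ab, an H2A gene on the plus strand of chromosome 13, 11 bases follow it. The annotated transcripts of Hist1h1c and Hist1h1e, which encode H1 proteins on the plus and the minus strand of chromosome 13, go on for 840 and 1153 bases. Hist1h4i, an H4 gene on the minus strand of chromosome 13, has 330 bases after it, and Hist3h2ba, an H2B gene on the plus strand of chromosome 11, has 169.

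After cells were called, 7875 barcodes were kept in the Jagged1/PyMT library and 7444 in the PyMT library, with medians of 4200 and 3841 UMIs a cell, and 70 barcode sequences occurred in both. Jag1 had 886 UMIs (16.8 CPM, counts per 1000000 UMIs of the group) in Jagged1/PyMT cells, against 67 UMIs (1.96 CPM) in PyMT cells. By class (named below), Jag1 had 261 and 1.81 CPM in epithelial-like and 22.8 and 0.191 CPM in T cell-like cells. Macrophage-like cells showed no such difference, at 12.1 (10.7 to 13.5) and 12.5 CPM (7.84 to 19.0). Clusters, made without histone genes, were named from marker genes, and all named clusters had 6 or more of their markers detected. One cluster (55 Jagged1/PyMT and 112 PyMT cells) was led by the epithelial genes Csn3, Krt18 and Krt8 although immune cells had been sorted. The cluster that held most dividing macrophage-like cells (186 Jagged1/PyMT and 8 PyMT cells) was led by the cell cycle genes Mki67, Birc5 and Top2a, and 35.6% of its barcodes had 3 or more UMIs in the core genes of more than 1 of the T cell, B cell and myeloid lineages. Whether these barcodes hold RNA of more than 1 cell was not tested, and 2 clusters in which most barcodes did so (695 Jagged1/PyMT and 281 PyMT cells) were left out of every class.

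The histone cluster genes gave 38879 UMIs in Jagged1/PyMT cells, which was 736 CPM (95% interval 729 to 744), against 16958 UMIs in PyMT cells, 496 CPM (488 to 503). The log2 ratio of Jagged1/PyMT over PyMT was 0.57 (0.54 to 0.60), a total into which the unequal shares of dividing cells enter. A few genes held most of this signal: 27.0% of the 55837 UMIs lay in Hist1h2ap (ENSMUSG00000094777, chr13:21833026-21833507) and 56.8% in the 5 most abundant genes. Of the 67 genes, 65 were detected, 57 reached 50 UMIs over both libraries, 10 stayed under 50, and Hist1h2aa and Hist1h2ba were at 0. The last 300 bases of 28 of the 57 transcripts were less than 50% unique, counted as 50-base stretches found in no other gene's transcript. Reads of these genes could be shared or lost in counting, and that was not tested. Hist1h2ap (0% unique), Hist2h2aa1 (0%, shared with Hist2h2aa2 among others) and Hist1h1e (0%, overlapped on the same strand by Hist1h2be) are the abundant ones among them. Hist1h1c, Hist1h1b, Hist1h1d, Hist1h4i, Hist1h4d and Hist1h4c were 100% unique.

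Histone UMIs were concentrated in dividing cells of both libraries. Dividing cells were defined without histone genes, as those with at least 5 UMIs and at least 0.3% of their UMIs in 26 S phase and 35 G2/M genes, and cells under 0.1% were called non-dividing. By that rule 364 Jagged1/PyMT cells (4.62%) and 58 PyMT cells (0.779%) were dividing, and 6791 and 6807 were non-dividing. The dividing cells held 9.91% of all UMIs but 53.7% of the histone UMIs in Jagged1/PyMT, and 2.96% of all UMIs but 36.4% of the histone UMIs in PyMT. Over non-dividing cells alone, histone genes had 359 CPM in Jagged1/PyMT and 325 CPM in PyMT (log2 0.15, 0.11 to 0.18), with 7 of 38 genes higher by 1.5-fold or more (21.1% of all genes) and 10 lower (17.6%). Over dividing cells alone they had 3988 and 6103 CPM (−0.61, −0.65 to −0.57). Between 0.25% and 0.35%, near the limit, lay 114 Jagged1/PyMT and 12 PyMT cells.

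In macrophage-like cells of Jagged1/PyMT tumours, histone genes stood at 3663 CPM in 280 dividing cells, against 308 CPM in 1723 non-dividing cells (log2 ratio 3.57, 3.53 to 3.62). In PyMT tumours the 15 dividing macrophage-like cells had 5947 CPM, against 207 CPM in 189 non-dividing cells (4.84, 4.66 to 5.03). Of the 1101 histone UMIs of those 15 cells, 1 barcode that also had genes of a second lineage held 368. T cell-like cells showed the same direction: in Jagged1/PyMT 5289 CPM in 30 dividing cells against 337 CPM in 2336 non-dividing cells (3.97, 3.89 to 4.05). In PyMT the 29 dividing T cell-like cells had 6597 CPM, against 285 CPM in 4533 non-dividing cells (4.53, 4.47 to 4.59). Most dividing T cell-like cells of both libraries lay in 1 cluster, led by Tnfrsf4, Ctla4 and Il2ra (135 Jagged1/PyMT and 266 PyMT cells). In the other T cell-like clusters at most 1.04% of Jagged1/PyMT and 0.412% of PyMT cells were dividing. The non-dividing T cell-like cells came mostly from those other clusters, so the groups compared differ in cluster as well. What cluster contributes to these T cell-like ratios was not tested. NK cell-like cells of Jagged1/PyMT tumours had 7871 CPM in 18 dividing cells, against 478 CPM in 82 non-dividing cells (4.04, 3.87 to 4.21). Neutrophil-like cells of Jagged1/PyMT tumours showed a smaller ratio, with 2390 CPM in 11 dividing cells against 551 CPM in 423 non-dividing cells (2.12, 1.92 to 2.31), and 1 of the 11 cells held 120 of their 261 histone UMIs. Dividing cells were higher in each of these 6 comparisons. B cell-like cells could not be compared, with 1 dividing cell in Jagged1/PyMT and 0 in PyMT. In the fewer dividing monocyte-like cells, 9 in Jagged1/PyMT had 3523 CPM and 5 in PyMT had 2468 CPM.

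**Figure D1:**
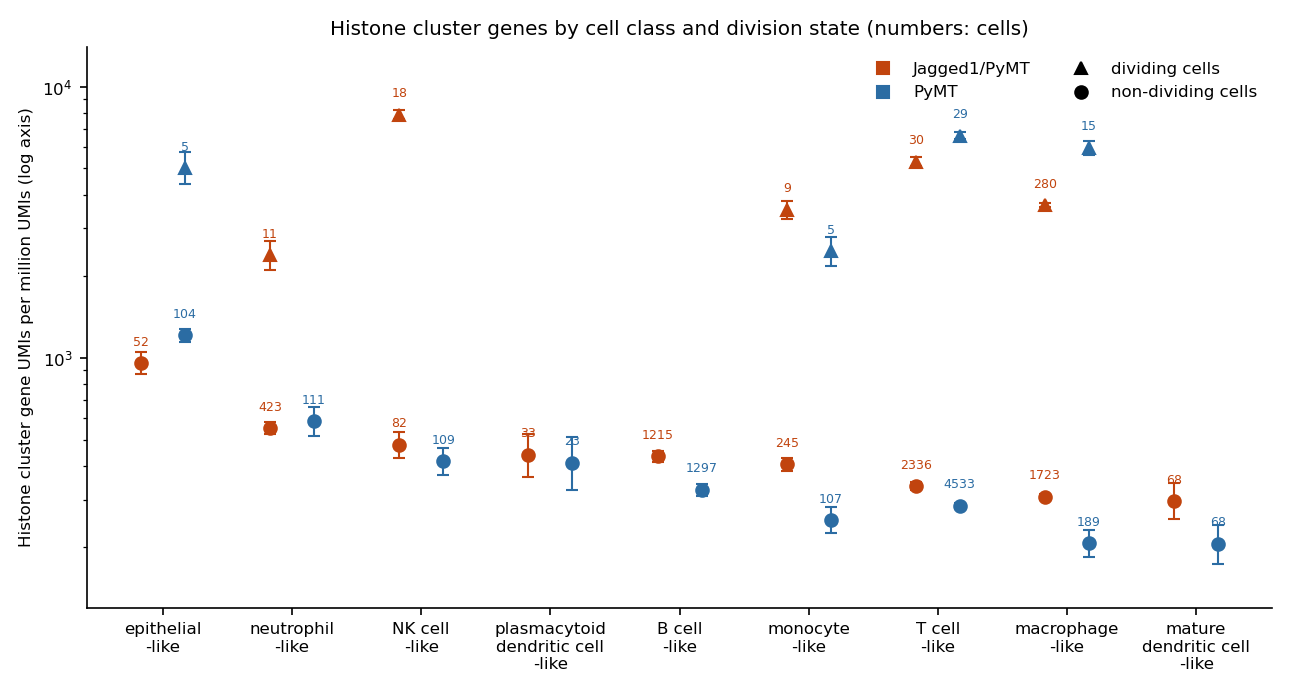
CPM of the histone cluster genes (log axis) in each cell class, Jagged1/PyMT left of PyMT. Triangles are dividing cells (groups of at least 5 cells) and circles non-dividing cells, bars are 95% Poisson intervals of counting, and the numbers are cells. Every triangle lies above the circles of its class and library, for example 3663 against 308 CPM in Jagged1/PyMT macrophage-like cells.

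Gene by gene the direction was close to uniform among the genes that could be counted, except in neutrophil-like cells. Among genes with at least 50 UMIs in both groups together, a gene was counted as past the fold when its CPM differed by 1.5-fold or more. In Jagged1/PyMT macrophage-like cells 40 of 41 histone genes were higher in dividing cells, where 14.8% of all genes tested were, with a median log2 ratio of 4.62 against 0.03 over all genes. In PyMT macrophage-like cells 8 of 8 were higher (21.2%). The exception in Jagged1/PyMT was Hist1h2bc, an H2B gene, at 70.5 CPM in dividing cells against 60.9 CPM in non-dividing cells. In T cell-like cells 24 of 24 were higher in Jagged1/PyMT (38.3% of all genes) and 35 of 36 in PyMT (37.4%), the remaining gene being Hist3h2ba. NK cell-like cells of Jagged1/PyMT had 13 of 13 higher (19.6%), and neutrophil-like cells had 2 of 6 (23.4%), namely Hist1h2ap and Hist1h1e. A gene could reach the 50 UMIs through the dividing cells alone, where it was high, so these counts lean towards higher. In NK cell-like cells of Jagged1/PyMT, dividing cells held 2682 histone UMIs and non-dividing cells 317. In PyMT macrophage-like cells these were 1101 and 300. The counts are therefore a description and no separate support for the direction.

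H2A genes led the dividing cells. Hist1h2ap stood at 1582 CPM (6239 UMIs) in dividing macrophage-like cells of Jagged1/PyMT tumours, against 17.9 CPM (314 UMIs) in non-dividing ones, a log2 ratio of 6.47 (6.31 to 6.64). In Jagged1/PyMT T cell-like cells Hist1h2ap had 2003 CPM in dividing against 26.1 CPM in non-dividing cells (6.26), and in PyMT T cell-like cells 3310 against 27.6 CPM (6.90). Of the histone UMIs of these dividing cells, Hist1h2ap held 6239 of 14444, 920 of 2430 and 1973 of 3933. Hist1h2af, another H2A gene, was close to absent outside division: dividing Jagged1/PyMT macrophage-like cells had 168 UMIs (42.6 CPM) against 3 UMIs (0.171 CPM) in non-dividing ones, a log2 ratio of 7.96 (6.39 to 10.3). In PyMT T cell-like cells Hist1h2af had 53 UMIs in dividing and 0 in 4533 non-dividing cells. Against a floor of 3 UMIs over the whole non-dividing group the dividing cells were 559.9-fold higher, a value that rests on that floor and is no lower bound. Hist1h2ab showed the same split, with 49 UMIs in dividing against 1 in non-dividing T cell-like cells of Jagged1/PyMT tumours.

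Among linker genes, Hist1h1b (ENSMUSG00000058773, chr13:21779883-21780625, minus strand) behaved like these H2A genes. It had 184 CPM in dividing against 1.54 CPM in non-dividing macrophage-like cells of Jagged1/PyMT (log2 6.91, 6.35 to 7.52). In T cell-like cells Hist1h1b had 287 against 1.20 CPM in Jagged1/PyMT (7.91) and 243 against 0.265 CPM in PyMT (9.84). Hist1h1c (ENSMUSG00000036181, chr13:23738808-23740367, plus strand) was at the other end of the linker genes, with 115 CPM in dividing against 72.5 CPM in non-dividing macrophage-like cells and 100.1 against 58.2 CPM in T cell-like cells of Jagged1/PyMT. Hist1h1e lay between them, at 240.4 against 32.6 CPM in the macrophage-like and 269.9 against 43.6 CPM in the T cell-like cells of Jagged1/PyMT.

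Ranked by the share of a gene's UMIs that lay in dividing cells, the 57 genes ran from 95.7% for Hist1h2af to 2.89% for Hist3h2ba, with 28 genes above 50% and 14 below 25%. Over both libraries the dividing cells held 7.18% of all UMIs, so a low share in this order can still lie above that level. Above 85% stood the 9 genes Hist1h2af, Hist1h3b, Hist1h2ah, Hist1h1b, Hist1h2ab, Hist1h2bn, Hist1h3g, Hist1h2bm and Hist1h2bk, which include members of 4 of the 5 protein groups and no H4 gene. The lowest were Hist3h2ba, Hist3h2a (4.26%), Hist1h2bc (12.8%), Hist1h1c (12.9%), Hist1h4i (14.4%) and Hist4h4 (14.4%). Dividing cells were fewer in PyMT, and the shares there were mostly lower: Hist1h1e had 41.6% of its UMIs in dividing cells in Jagged1/PyMT and 18.9% in PyMT, and Hist1h1c 15.5% and 5.76%. Hist1h2af (94.9% and 100%) and Hist1h1b (87.8% and 92.8%) were high in both libraries. H4 genes had a median share of 22.3%, against 70.1% for H2A, 63.8% for H3, 57.9% for H2B and 56.8% for H1 genes.

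**Figure D2:**
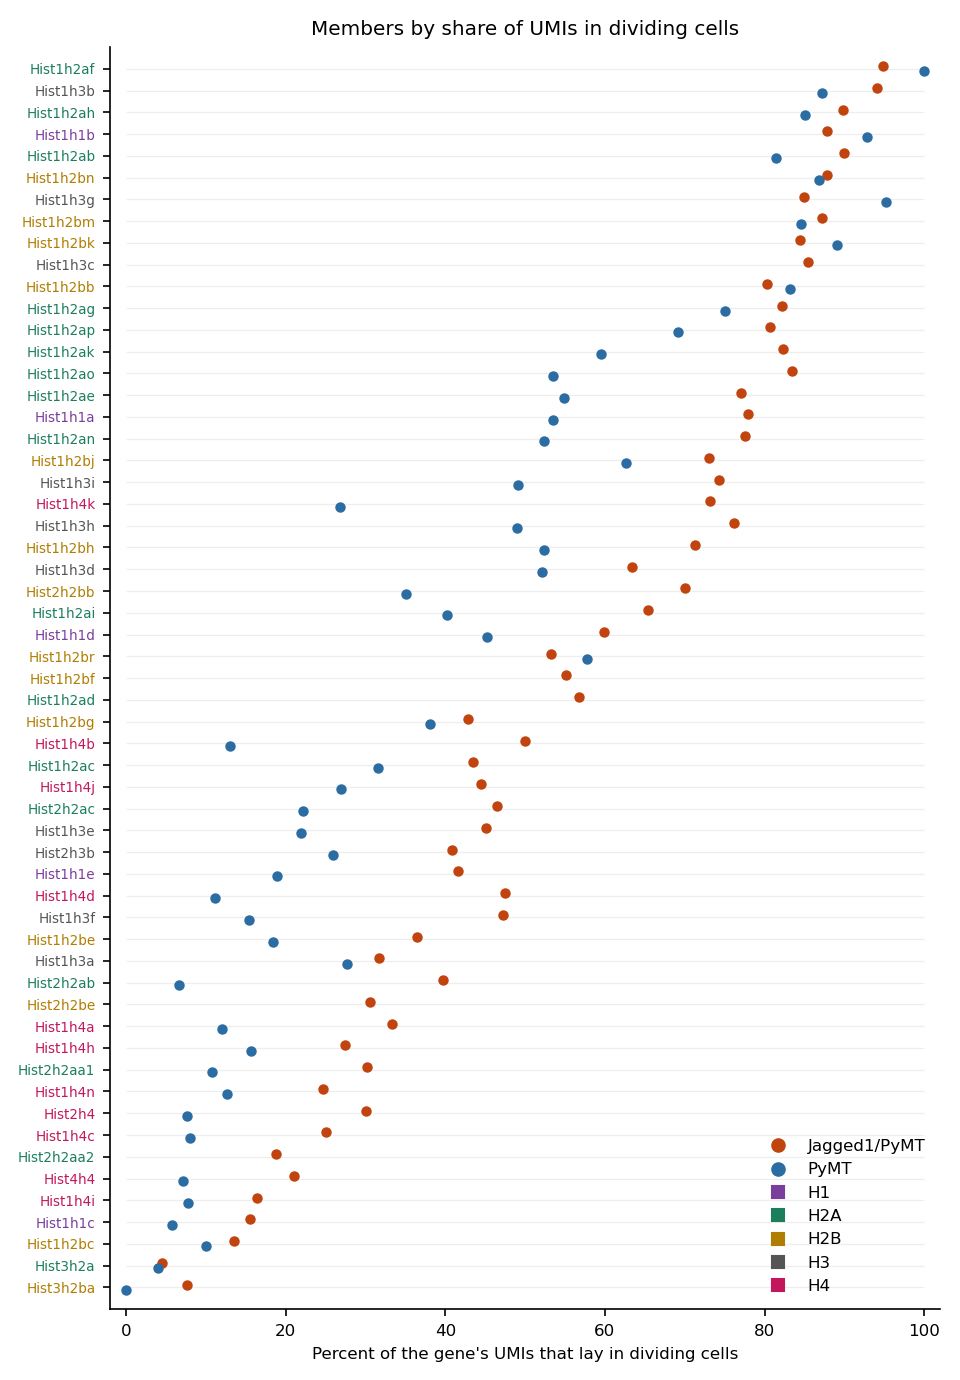
Percent of each gene's UMIs that lay in dividing cells (horizontal axis), 1 line for each of the 57 genes with at least 50 UMIs, with Jagged1/PyMT and PyMT as separate points and gene names coloured by protein. A library's point is left out where it had too few UMIs of the gene. The order runs from Hist1h2af at 95.7% over both libraries to Hist3h2ba at 2.89%, and the H4 genes lie mostly in the lower part.

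That order ran alongside the annotated 3′ ends, which the choice of genes did not use. Each gene was represented by its transcript with the longest annotated 3′ UTR. The 21 genes with a 3′ UTR of 200 bases or more had a median of 33.3% of their UMIs in dividing cells, against 69.6% for the 36 others. Of these 36, 26 have a shorter annotated 3′ UTR (median 72.6%) and 10 have none annotated (66.7%). Uniqueness of the last 300 bases ran along the same split. Most of the 21 genes were at least 50% unique, and most of the 36 others were under 50%, such as Hist1h2af (27.9%) and Hist1h2bn (1.20%). What shared or lost reads contribute to this order was not tested. Over the 57 genes, with none annotated taken as 0 bases, the correlation of 3′ UTR length and that share was −0.56 (Spearman) and −0.31 (Pearson), and over the 47 with an annotated one −0.53 and −0.26, as a description of genes that share libraries, cells and sequence. The 9 genes with AATAAA, the usual poly(A) signal, in the last 60 bases of the transcript had a median of 19.4%, against 59.0% for the other 48. Hist1 cluster genes had a median of 61.9% (46 genes) and Hist2 to Hist4 genes 21.3% (11 genes). Among all 67 genes, 13 have no annotated 3′ UTR, Hist1h1b, Hist1h2bn and Hist1h4k among them, yet together these 13 gave 4906 UMIs.

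Promoters of pairs of genes from each end of that order are printed because 1 protein group can hold genes with low and high shares in dividing cells. For H1 these are Hist1h1c (12.9%) and Hist1h1b (88.7%), for H2B Hist3h2ba (2.89%) and Hist1h2bb (81.5%). The H1 pair differs in degree, since Hist1h1c also had a higher CPM in dividing macrophage-like and T cell-like cells of Jagged1/PyMT. Each is the 250 bases before the RefSeq start (GRCm38.p6), 5′ to 3′ in the direction of transcription. Capitals mark the CCAAT box, the TATAAA of the TATA box, the octamer ATTTGCAT and the H1 box AAACACA, each searched on either strand.
Hist1h1c, chr13:23738557-23738806, plus strand: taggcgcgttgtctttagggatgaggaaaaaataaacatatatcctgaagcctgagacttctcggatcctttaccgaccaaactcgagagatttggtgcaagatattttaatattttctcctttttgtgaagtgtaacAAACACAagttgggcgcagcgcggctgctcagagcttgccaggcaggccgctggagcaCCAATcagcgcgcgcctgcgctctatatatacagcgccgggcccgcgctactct
Hist1h1b, chr13:21780626-21780875, minus strand: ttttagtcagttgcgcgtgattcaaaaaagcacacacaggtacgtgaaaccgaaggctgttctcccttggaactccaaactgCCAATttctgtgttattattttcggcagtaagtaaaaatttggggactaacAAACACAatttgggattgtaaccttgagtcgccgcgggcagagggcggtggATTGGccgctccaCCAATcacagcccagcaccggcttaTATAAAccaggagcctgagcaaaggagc
Hist3h2ba, chr11:58948661-58948910, plus strand: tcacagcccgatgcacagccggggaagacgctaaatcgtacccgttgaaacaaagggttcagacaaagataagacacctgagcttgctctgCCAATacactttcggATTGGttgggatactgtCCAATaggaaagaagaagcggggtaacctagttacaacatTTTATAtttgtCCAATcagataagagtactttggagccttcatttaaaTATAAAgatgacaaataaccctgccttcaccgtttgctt
Hist1h2bb, chr13:23746484-23746733, plus strand: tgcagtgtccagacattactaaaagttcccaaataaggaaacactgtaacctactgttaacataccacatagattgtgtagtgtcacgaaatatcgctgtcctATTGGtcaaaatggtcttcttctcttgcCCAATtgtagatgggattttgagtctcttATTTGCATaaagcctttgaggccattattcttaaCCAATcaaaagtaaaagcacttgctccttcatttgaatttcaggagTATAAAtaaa
Both H1 promoters hold an AAACACA, and they differ in that Hist1h1b has 3 CCAAT and a TATAAA and Hist1h1c 1 CCAAT and no TATAAA. Of the H2B pair only Hist1h2bb holds the octamer ATTTGCAT, and both have CCAAT and TATAAA. Over the 61 genes matched to a RefSeq promoter, counted in 300 bases around the start, CCAAT was in 85.2%, against 37.4% of 32544 mouse promoters. It was in every H1, H2A, H2B and H3 promoter matched and in 3 of the 12 H4 promoters. TATAAA was in 55.7% (all promoters 13.6%), ATTTGCAT in 21.3% (1.75%), in 7 of 18 H2A and 6 of 16 H2B promoters, and AAACACA in 13.1% (7.20%), in 4 of 5 H1 promoters. The printed pairs do not stand for all genes. Among matched genes with at least 50 UMIs, TATAAA was in 15 of 27 above 50% in dividing cells and 14 of 24 others. In the same 2 groups ATTTGCAT was in 7 and 4, CCAAT in 26 and 18 and AAACACA in 3 and 2. These are letter matches and show no binding.

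Within dividing cells the histone level followed the balance of S and G2/M genes. In Jagged1/PyMT macrophage-like cells it was 3322 CPM where under 25% of these cell cycle UMIs were S genes (115 cells), 5155 CPM from 25% to 50% (79 cells), 3661 CPM from 50% to 75% (48 cells) and 374 CPM at 75% or more (38 cells). The cells with the highest S gene share were the lowest and close to the non-dividing level of 308 CPM. They were also the shallowest, with a median of 6624 UMIs against 13376 to 17280 in the other bins, and the part of depth was not tested. PyMT T cell-like cells ran in the same shape, with 3727 CPM (2 cells), 7893 CPM (6 cells), 7645 CPM (13 cells) and 3532 CPM (8 cells), and Jagged1/PyMT T cell-like cells with 3582 (8 cells), 5187 (4 cells), 11319 (6 cells) and 2942 CPM (12 cells). Histone levels were highest in the middle of the axis in both classes, where S and G2/M RNA were found together. Single cells within a bin spread widely, from 0 to 33786 CPM in the 25% to 50% bin of Jagged1/PyMT macrophage-like cells, around a median of 3377 CPM.

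**Figure D3:**
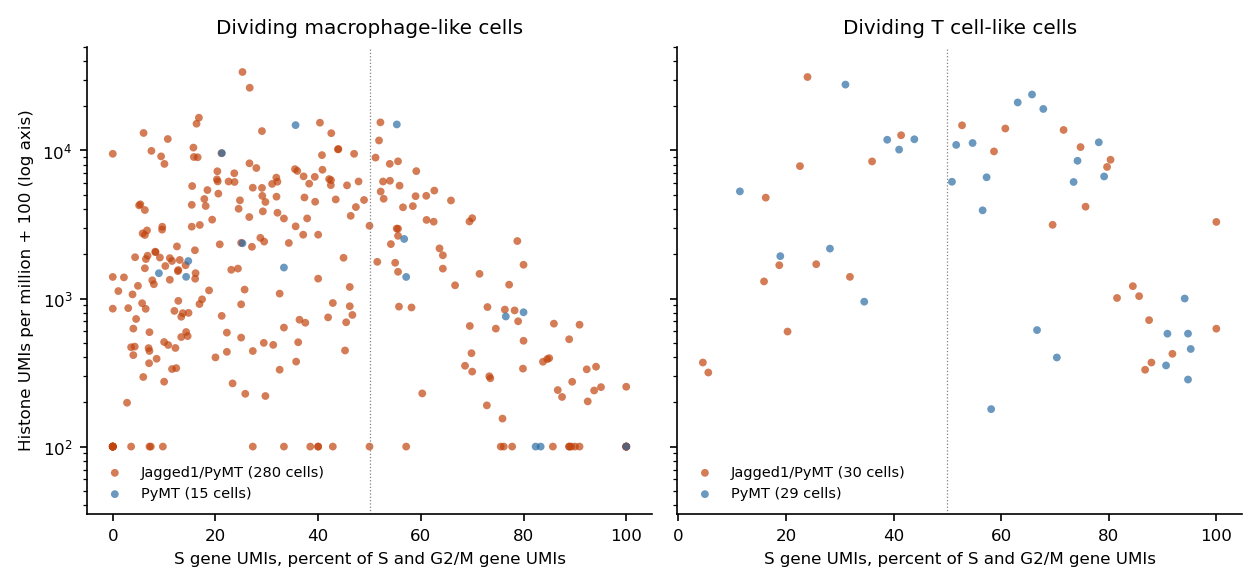
CPM of the histone cluster genes plus 100 (log axis) in each dividing macrophage-like (left) and T cell-like cell (right), against the percent of its S and G2/M gene UMIs that were S genes. Points are cells of Jagged1/PyMT or PyMT tumours, and the dotted line is the 50% split. Cells at 75% or more in Jagged1/PyMT macrophage-like cells sum to 374 CPM, against 5155 CPM at 25% to 50%.

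When dividing Jagged1/PyMT macrophage-like cells were split at 50%, the S-weighted cells had 2588 CPM and the G2/M-weighted cells 4098 CPM (log2 −0.66, −0.72 to −0.60). Of 38 histone genes, 0 were higher (7.33% of all genes) and 29 were lower in S-weighted cells (9.1%). Hist1h2bc had 15.8 against 92.6 CPM (−2.55), Hist1h1e 90.6 against 301.1 CPM (−1.73) and Hist1h1c 43.1 against 144.0 CPM (−1.74). Hist2h2bb had 34.3 against 169.6 CPM (−2.31), but 1 G2/M-weighted cell held 154 of its 476 UMIs there. In T cell-like cells the order differed between libraries. Jagged1/PyMT S-weighted cells had 5865 CPM against 4227 CPM in G2/M-weighted cells (0.47, 0.34 to 0.60), and PyMT 6415 against 6999 CPM (−0.13, −0.22 to −0.03). Without Hist1h2ap these were 0.40 and −0.82, and in PyMT 5 of the 9 genes whose interval left out 0 changed sign without the top cell of each group. PyMT macrophage-like cells had 6581 CPM in 8 S-weighted cells and 5748 CPM in 7 G2/M-weighted cells, with an interval that spans 0 (0.20, −0.0032 to 0.39). Hist1h2ap was higher in S-weighted T cell-like cells of both libraries, at 2271 against 1506 CPM in Jagged1/PyMT (0.59) and 3762 against 2313 CPM in PyMT (0.70).

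Other histone genes and the proteins that handle histones were also higher in dividing cells, over lists fixed by name. Of 9 measured histone genes outside the clusters, 6 were higher in Jagged1/PyMT macrophage-like, 7 in Jagged1/PyMT T cell-like and 6 in PyMT T cell-like dividing cells, and 0 were lower in any of them. Over all genes 14.8%, 38.3% and 37.4% were higher in the same comparisons, so the background is larger in T cell-like cells. H2afz, the H2A.Z variant gene, had 2869 CPM in dividing against 707 CPM in non-dividing Jagged1/PyMT macrophage-like cells (2.02), and H2afx, whose protein is phosphorylated at DNA breaks, 290.4 against 26.1 CPM (3.48). H3f3b, one of the H3.3 genes, which is used outside replication, had 5191 against 4203 CPM (0.30). Of 11 genes for histone RNA processing and transcription, 8, 7 and 8 were higher in those 3 comparisons and 0, 1 and 0 lower. Slbp, which binds the stem-loop, had 138.5 against 43.9 CPM in Jagged1/PyMT macrophage-like cells (1.66), 402.7 against 55.3 CPM in Jagged1/PyMT T cell-like cells (2.86) and 328.8 against 92.8 CPM in PyMT T cell-like cells (1.82). Npat, which activates histone gene transcription, was scarce, at 6.85 against 4.26 CPM in the Jagged1/PyMT macrophage-like cells. Of the chaperones and import factors, 13 of 16, 9 of 11 and 12 of 15 measured were higher and 0, 0 and 2 lower. Asf1b, an H3 and H4 chaperone of dividing cells, had 88.5 against 2.22 CPM in Jagged1/PyMT macrophage-like cells (5.32), and Chaf1a, of the replication chaperone CAF-1, 35.5 against 2.10 CPM (4.08).

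Outside division the histone level differed by cell class. Epithelial-like cells were highest, at 957 CPM in Jagged1/PyMT and 1212 CPM in PyMT, followed by neutrophil-like cells at 551 and 585 CPM. NK cell-like cells had 478 and 416 CPM, plasmacytoid dendritic cell-like cells 439 and 411 CPM, B cell-like cells 433 and 327 CPM and monocyte-like cells 405 and 253 CPM. T cell-like cells had 337 and 285 CPM, and macrophage-like cells 308 and 207 CPM, close to mature dendritic cell-like cells at 297 and 206 CPM. Over T cell-like cells the log2 ratio was 1.51 (1.36 to 1.65) in Jagged1/PyMT and 2.09 (2.001 to 2.18) in PyMT for epithelial-like cells, and 0.71 (0.62 to 0.80) and 1.04 (0.86 to 1.22) for neutrophil-like cells. For macrophage-like cells it was −0.13 (−0.20 to −0.07) and −0.46 (−0.63 to −0.29). Monocyte-like cells were above T cell-like cells in Jagged1/PyMT (0.26) and below them in PyMT (−0.17).

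The genes behind these levels were not the same in each class. Hist1h2bc, an H2B gene (ENSMUSG00000018102, chr13:23684199-23692908, plus strand), varied widely. It had 222.5 CPM in Jagged1/PyMT and 281.9 CPM in PyMT epithelial-like cells, 153 and 132.5 CPM in neutrophil-like cells and 60.9 and 42.8 CPM in macrophage-like cells. Hist1h2bc was lowest in T cell-like cells, at 5.12 CPM in Jagged1/PyMT and 3.49 CPM in PyMT, so myeloid and epithelial-like cells were high and lymphoid cells low, with B cell-like cells (22.0 and 10.1 CPM) and NK cell-like cells (18.1 and 17.1 CPM) between. Hist1h4i had the same leading classes, with 77.7 and 80.0 CPM in epithelial-like and 72.8 and 53.0 CPM in neutrophil-like cells, against 6.32 and 4.92 CPM in T cell-like cells.

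Several H4 genes and the H2B gene Hist3h2ba ran the other way and were highest in T cell-like cells among the T, B, macrophage, monocyte and neutrophil-like classes. Hist1h4d had 15.9 CPM in Jagged1/PyMT and 13.2 CPM in PyMT T cell-like cells, and Hist1h4d in neutrophil-like cells had 1.72 CPM (5 UMIs) and 0 UMIs. Hist4h4 had 2.75 and 2.21 CPM in neutrophil-like cells, against 12.2 and 12.8 CPM in T cell-like cells. In macrophage-like cells Hist1h4c had 3.41 and 6.90 CPM, against 14.4 and 10.96 CPM in T cell-like cells, and Hist2h4 2.33 and 0.690 CPM against 8.82 and 9.37 CPM. Hist3h2ba had 3.59 CPM (33 UMIs) in Jagged1/PyMT and 4.87 CPM (92 UMIs) in PyMT T cell-like cells, and 0.512 CPM and 0 UMIs in macrophage-like cells. Neutrophil-like cells thus had high Hist1h2bc and Hist1h4i beside low Hist1h4d and Hist4h4.

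By counts, 6 histone genes were higher in neutrophil-like than in T cell-like cells (29.0% of all genes) and 13 of 21 lower (32.1%) in Jagged1/PyMT, and 8 were higher (25.1%) and 8 of 22 lower (40.4%) in PyMT. Macrophage-like cells had 3 higher (36.6%) and 12 of 22 lower (23.3%) in Jagged1/PyMT, and 2 higher (28.4%) and 15 of 21 lower (30.3%) in PyMT. Epithelial-like cells had 9 of 18 higher (34.3%) and 4 lower (28.4%) in Jagged1/PyMT, and 14 of 23 higher (36.4%) and 3 lower (27.2%) in PyMT. For macrophage-like cells the lower counts were above the shares over all genes in both libraries, and for epithelial-like cells the higher counts were.

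Among linker genes Hist1h1c and Hist1h1e held most of the RNA outside division. Over all non-dividing cells Hist1h1c had 71.3 CPM in Jagged1/PyMT and 43.1 CPM in PyMT, Hist1h1e 42.7 and 29.99 CPM, Hist1h1b 2.01 and 0.580 CPM and Hist1h1a 1.80 and 1.90 CPM. By class Hist1h1c had 168 and 144 CPM in epithelial-like, 113 and 106 CPM in neutrophil-like, 72.5 and 46.9 CPM in macrophage-like and 58.2 and 38.2 CPM in T cell-like cells of Jagged1/PyMT and PyMT tumours. Of all histone UMIs in non-dividing cells, H1 genes held 34.6% in Jagged1/PyMT and 24.3% in PyMT, against 18.9% and 11.9% in dividing cells. H2A genes held 20.9% and 30.6% in non-dividing cells, against 57.1% and 63.0% in dividing cells. H4 genes held 19.1% and 23.3% in non-dividing cells, against 6.85% and 5.02% in dividing cells.

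**Figure D4:**
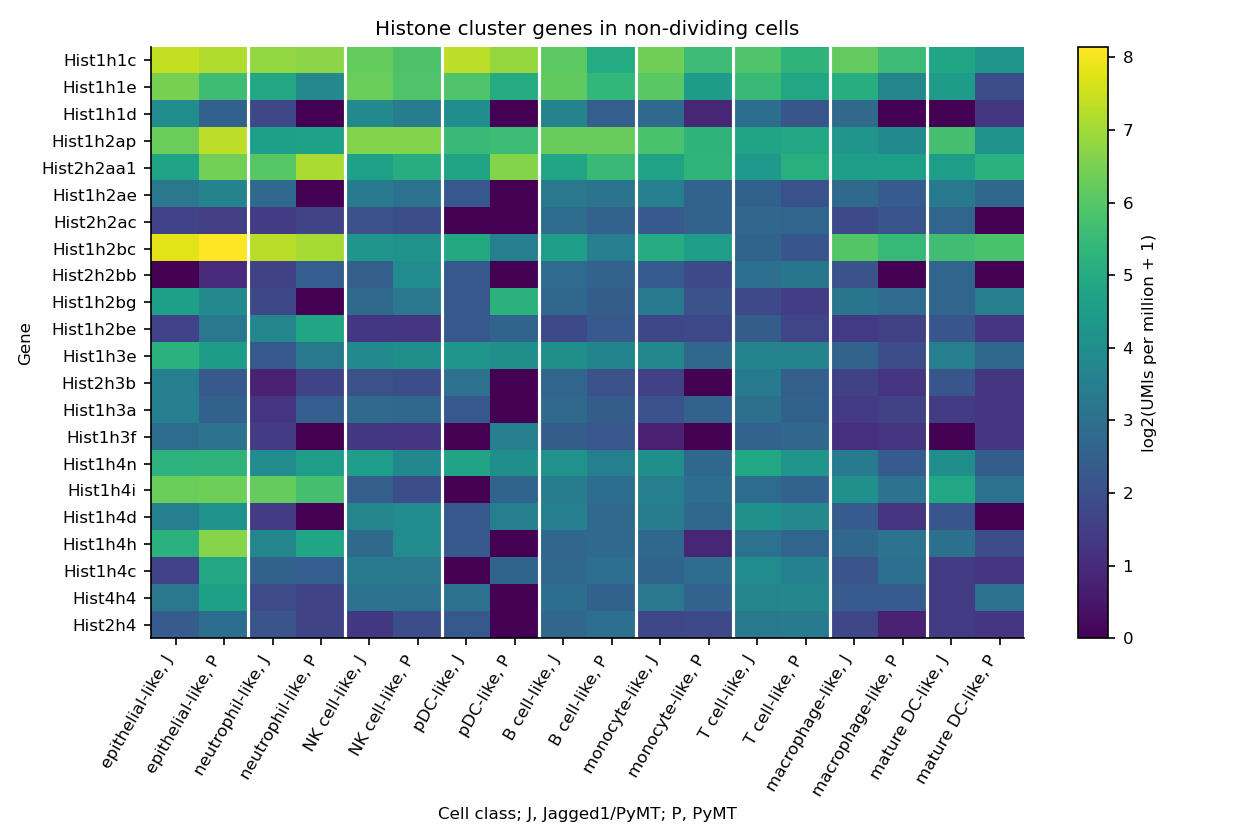
Levels of the most abundant histone cluster genes in non-dividing cells, as log2(CPM + 1), with genes grouped by protein from H1 to H4 and a pair of columns for each class (J, Jagged1/PyMT; P, PyMT; DC, dendritic cell; pDC, plasmacytoid dendritic cell). Hist1h2bc is bright in epithelial-like, neutrophil-like and macrophage-like columns and dim in T cell-like ones (5.12 and 3.49 CPM), and Hist1h4d is brighter in T cell-like than in neutrophil-like columns.

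Across the 19 clusters with at least 50 cells, the genes most like each member by Pearson r of log2(CPM + 1) fell along the same lines, as a description of clusters that share 2 libraries. Hist1h1b and Hist1h2ap were most like each other (0.98), and outside the cluster genes they were most like Top2a (0.96) and Ska1 (0.92). Hist1h2ab (0.98), Hist1h2af (0.97) and Hist1h3b (0.97) were most like Kif11, a mitotic motor that is in the G2/M list. Hist1h1d and Hist1h1e were most like each other (0.95). Hist1h2bc was most like Eif2ak2 (0.93), Hist1h1c most like Arrdc3 (0.88) and Hist1h4i most like Wipi1 (0.88), none of which is in the cell cycle lists.

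Genotypes were compared within class, where the question is whether cells of 1 kind hold more histone RNA in Jagged1/PyMT tumours. Non-dividing macrophage-like cells had 308 CPM in Jagged1/PyMT and 207 CPM in PyMT, a log2 ratio of 0.57 (0.40 to 0.74). Monocyte-like cells had 405 and 253 CPM (0.68, 0.50 to 0.87), B cell-like cells 433 and 327 CPM (0.41, 0.31 to 0.51) and T cell-like cells 337 and 285 CPM (0.24, 0.18 to 0.31). Each of these 4 was higher in Jagged1/PyMT. Mature dendritic cell-like cells, 68 in each library, were higher as well, at 297 and 206 CPM (0.53, 0.20 to 0.86). Plasmacytoid dendritic cell-like cells had 439 and 411 CPM in 33 and 23 cells (0.09, −0.33 to 0.52), with an interval that spans 0. Neutrophil-like cells had 551 and 585 CPM (−0.09, −0.27 to 0.11) and NK cell-like cells 478 and 416 CPM (0.20, −0.03 to 0.44), both with an interval that spans 0. Epithelial-like cells were lower, at 957 CPM in 52 Jagged1/PyMT cells and 1212 CPM in 104 PyMT cells (−0.34, −0.50 to −0.19). In macrophage-like cells 8 of 17 histone genes were higher (11.2% of all genes) and 1 lower (9.44%). In T cell-like cells 7 of 25 were higher (4.79%) and 1 lower (6.72%), in B cell-like cells 6 of 13 (4.42%) and 1 (6.41%), and in monocyte-like cells 3 of 6 (7.54%) and 1 (7.44%). Epithelial-like cells had 1 of 8 higher (8.12%) and 3 lower (11.8%).

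By protein, H1 genes had the largest difference in macrophage-like, T cell-like and B cell-like cells. They had 113.8 CPM in Jagged1/PyMT and 61.4 CPM in PyMT non-dividing macrophage-like cells, beside 78.1 and 53.8 CPM of H2B and 46.7 and 32.4 CPM of H4 genes. H1 genes of T cell-like cells had 112 and 71.7 CPM and H4 genes 99.0 and 78.6 CPM, while H2A genes had 64.3 and 79.3 CPM. Hist1h1e in non-dividing cells had 32.6 CPM in Jagged1/PyMT and 12.4 CPM in PyMT macrophage-like cells (1.39, 0.72 to 2.16), 65.4 and 21.3 CPM in monocyte-like cells (1.62), 69.7 and 40.9 CPM in B cell-like cells (0.77) and 43.6 and 27.9 CPM in T cell-like cells (0.64, 0.45 to 0.83). It was past the fold in 6 of the 7 classes where it could be counted, but in epithelial-like cells the ratio of 0.89 fell to 0.11 without the top cell of each group. Hist1h1c had 72.5 and 46.9 CPM in macrophage-like (0.63, 0.28 to 1.003), 82.7 and 46.6 CPM in monocyte-like (0.83), 66.7 and 31.2 CPM in B cell-like (1.10, 0.80 to 1.40) and 58.2 and 38.2 CPM in T cell-like cells (0.61, 0.44 to 0.77). Hist1h1c was past the fold in these 4 classes of the 8 counted and not in neutrophil-like cells, with 113 and 106 CPM. Hist1h1d had 106 UMIs in Jagged1/PyMT and 0 in PyMT macrophage-like cells, which is 2.91-fold higher when the 0 is set to a floor of 3 UMIs. In T cell-like cells Hist1h1d had 6.75 and 3.55 CPM (0.93). Among H4 genes, Hist1h4n was past the fold upwards in 4 of 6 classes, as in T cell-like cells with 28.6 and 17.9 CPM (0.68, 0.44 to 0.92) and monocyte-like cells with 15.6 and 5.72 CPM (1.44, 0.29 to 2.84), and downwards in neutrophil-like cells with 14.1 and 22.1 CPM (−0.65, −1.67 to 0.51).

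Hist2h2aa1, an H2A gene of the Hist2 cluster (ENSMUSG00000064220, chr3:96245497-96246082, plus strand), went against this. It had 19.8 CPM in Jagged1/PyMT and 33.3 CPM in PyMT T cell-like cells (−0.75, −0.996 to −0.51), 27.5 and 43.7 CPM in B cell-like cells (−0.67), 24.9 and 39.2 CPM in monocyte-like cells (−0.65), 64.2 and 136.9 CPM in neutrophil-like cells (−1.09) and 25.2 and 84.8 CPM in epithelial-like cells (−1.75). Hist2h2aa1 was lower in Jagged1/PyMT in 5 of 6 classes, and in macrophage-like cells it had 22.9 and 23.5 CPM. Hist1h2ap, the most abundant member, had 26.1 and 27.6 CPM in T cell-like and 75.7 and 76.0 CPM in B cell-like cells, so the 2 libraries were within counting error there. Hist1h2bc had 60.9 and 42.8 CPM in macrophage-like cells (0.51), 22.0 and 10.1 CPM in B cell-like cells (1.12) and 222.5 and 281.9 CPM in epithelial-like cells (−0.34).

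**Figure D5:**
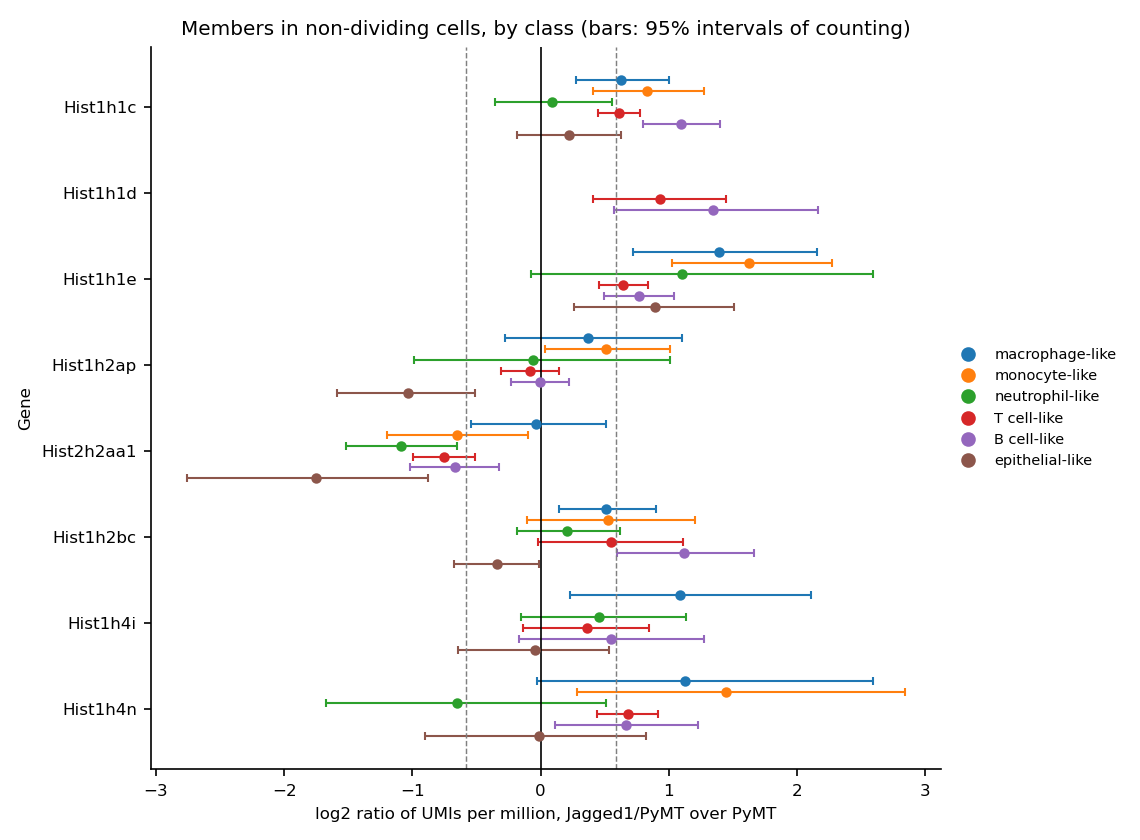
Log2 ratio of CPM, Jagged1/PyMT over PyMT, of 8 histone cluster genes in non-dividing cells of 6 classes. Points are ratios, bars 95% intervals of counting, dashed lines the 1.5-fold limits, and a class is left out where a gene had too few UMIs or 0 in a library. Hist1h1e lies right of 0 in all 6 classes, with a bar that spans 0 in neutrophil-like cells, and Hist2h2aa1 left of 0, from −0.03 in macrophage-like to −1.75 in epithelial-like cells.

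Cells of a class were not the same mixture in both libraries. The largest T cell-like cluster was the one led by Cd40lg and Cd28 in Jagged1/PyMT (672 cells, against 393 in PyMT) and the one led by Ramp3 and Tmem64 in PyMT (350 in Jagged1/PyMT, against 1846 in PyMT). In the Cd40lg and Cd28 cluster histone genes were lower, at 418 CPM in Jagged1/PyMT and 487 CPM in PyMT, and in the Ramp3 and Tmem64 cluster higher, at 359 and 282 CPM. The cluster led by Cd8b1 and Cd8a had 329 and 278 CPM. These cluster values are over all their cells. The macrophage-like clusters not led by cell cycle genes were both higher in Jagged1/PyMT, at 353 and 216 CPM in the larger (1.58% and 0% dividing cells) and 302 and 196 CPM in the shallower one (13.5% and 7.48% dividing cells). Both B cell-like clusters were higher as well, at 457 and 337 CPM and at 422 and 266 CPM. What this mixture contributes to the T cell-like ratio was not tested.

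Few handling genes were past the fold between genotypes. In non-dividing macrophage-like cells 0 of 9 histone genes outside the clusters, 0 of 11 processing genes and 0 of 12 chaperones were past the fold in either direction, where 11.2% of all genes were higher and 9.44% lower. In T cell-like cells 0 were higher and 1 was lower of 9, of 11 and of 15, where 4.79% of all genes were higher and 6.72% lower. In T cell-like cells these counts are close to the shares over all genes for lists of this size. In macrophage-like cells they lie below those shares, on lists of 9 to 12 genes.

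Among dividing macrophage-like and T cell-like cells the totals were lower in Jagged1/PyMT, but few PyMT cells stand behind them. The total of dividing monocyte-like cells was higher in Jagged1/PyMT, at 3523 CPM in 9 cells and 2468 CPM in 5 PyMT cells. Of the 657 histone UMIs of those Jagged1/PyMT cells, 1 cell held 232. The median cell went the other way, with 13 histone UMIs in Jagged1/PyMT and 71 in PyMT. Dividing macrophage-like cells had 3663 CPM in 280 Jagged1/PyMT cells and 5947 CPM in 15 PyMT cells (−0.70, −0.79 to −0.61), with 5 of 40 histone genes higher (16.6%) and 23 lower (18.6%). Their median depth was 14052.5 UMIs in Jagged1/PyMT and 3298 UMIs in PyMT. Part of them lay in the shallower macrophage-like cluster, where 13.5% of 733 Jagged1/PyMT and 7.48% of 107 PyMT cells were dividing. Over all cells of that cluster histone genes stood at only 302 and 196 CPM. What depth and cluster contribute was not tested. Dividing T cell-like cells had 5289 and 6597 CPM (−0.32, −0.39 to −0.25), with 7 of 28 higher (8.97%) and 8 lower (5.87%), and without Hist1h2ap the totals were 3287 and 3288 CPM. A PyMT macrophage-like cell of 24975 UMIs held 368 of the 1101 histone UMIs of its group, and its barcode also had genes of a second lineage. Of its histone UMIs 56 were Hist1h1b, which had 184 CPM in Jagged1/PyMT and 415.9 CPM in PyMT. The Hist1h1b ratio of −1.17 became 0.42 without the top cell of each library. A PyMT T cell-like cell of 22217 UMIs held 617 histone UMIs, which was 3.64% of its library's total, with 109 of Hist1h2bn and 77 of Hist1h2bb. Without the top cells, the Hist1h2bn ratio in dividing T cell-like cells moved from −2.96 to 0.06, and that of Hist1h2bb from −2.85 to 0.37. In Jagged1/PyMT a T cell-like cell held 65 of the 88 Hist1h4d UMIs, and the Hist1h4d ratio of 2.44 became 0.91. Of the 12 genes ranked first by the interval bound nearest 0 in each class, 4 in dividing macrophage-like and 6 in dividing T cell-like cells changed sign without the top cell of each library, and 6 and 5 stayed past the fold in the same direction. In non-dividing T cell-like cells 0 of 10 such genes changed sign and 7 stayed past the fold.

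Over all cells of a class, the share of dividing cells enters as well. Macrophage-like cells had 877 CPM in Jagged1/PyMT and 814 CPM in PyMT (0.11, 0.03 to 0.19), with 8 of 42 histone genes higher (10.3%) and 6 lower (9.75%). When barcodes with genes of a second lineage were left out it was −0.00217, and it was 0.49 without the cell with the most histone UMIs in each library. T cell-like cells had 561 and 468 CPM (0.26, 0.21 to 0.31), with 16 of 42 higher (5.69%) and 6 lower (6.04%). B cell-like cells had 445 and 324 CPM (0.45, 0.36 to 0.55), with 7 of 17 higher (4.52%) and 1 lower (6.1%). NK cell-like cells had the largest ratio of the classes, 2418 and 1169 CPM (1.05, 0.94 to 1.15), with 15 of 16 higher (8.9%) and 0 lower (14.1%). In that class 14.5% of Jagged1/PyMT and 3.31% of PyMT cells were dividing, and 1 Jagged1/PyMT cell held 688 histone UMIs.

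Free RNA in droplets without a cell also held histone RNA: barcodes under 100 UMIs had 1408 CPM in Jagged1/PyMT and 703 CPM in PyMT. The 9 genes with over 85% of their UMIs in dividing cells had 161 and 32.7 CPM there, against 3.97 and 2.26 CPM in non-dividing cells. Non-dividing cells thus held these genes at 2.46% and 6.90% of the free level. At that same proportion the free histone level corresponds to 34.7 and 48.5 CPM, beside the 359 and 325 CPM measured over all non-dividing cells. The 9 genes were chosen for few UMIs outside dividing cells of these same data, so a low proportion follows in part from that choice. What part of the histone level of non-dividing cells is free RNA was not tested. By class the proportion in Jagged1/PyMT was 1.07% in neutrophil-like, 1.49% in T cell-like, 1.94% in macrophage-like and 4.19% in B cell-like cells. In Jagged1/PyMT NK cell-like cells it was 14.1% (15 UMIs of these genes), which corresponds to 198 of their 478 CPM. In PyMT these 5 classes ran from 4.22% in macrophage-like to 8.72% in NK cell-like cells, on 1 to 27 UMIs. H1 genes that were higher in non-dividing Jagged1/PyMT cells were also higher in its free RNA. Free Hist1h1e had 198 CPM in Jagged1/PyMT and 94.6 CPM in PyMT, Hist1h1c 105 and 67.2 CPM and Hist1h1d 34.6 and 13.3 CPM. Free Hist2h2aa1, which was lower in Jagged1/PyMT cells, had 34.6 and 31.8 CPM. What free RNA contributes to the genotype ratios of these genes in non-dividing cells was not tested.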

How the data were processed

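Single-cell RNA was counted with a 10x Genomics 3′ kit in immune cells sorted from mammary tumours. The deposited matrices hold raw counts of UMIs per gene and barcode, made with Cell Ranger 3.0.2 per the submitters' processing notes, and they still list all 737280 barcodes, most of them empty. Genome build and annotation: not given in the sources used here. Total UMIs were 55506773 for Jagged1/PyMT and 36012036 for PyMT, and 95.1% and 95.0% lay in called cells. Both samples of a genotype share a matrix, so no value measures the spread between mice.

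Barcodes were kept as cells from 500 UMIs and 250 genes upwards, with mitochondrial UMIs up to 10%. With Python 3.11.15, scanpy 1.11.5, anndata 0.12.19, scikit-learn 1.9.0, numpy 2.4.6, scipy 1.17.1, pandas 2.3.3 and matplotlib 3.10.9, cells of both libraries were clustered together (10000 counts a cell, 2000 variable genes, 30 components, 15 neighbours, Leiden resolution 1) without Jag1 and without histone, ribosomal, mitochondrial, haemoglobin and receptor variable genes. Classes are called "-like" and named from 15 marker sets. Every barcode the rule keeps was used. Scrublet doublet scores served as an alternative only.

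UMIs were summed per library, class and division state and divided by the total (CPM), with exact Poisson 95% intervals, and exact conditional binomial intervals for ratios. A gene at 0 was set to 3 UMIs over the group. Genes named in a comparison were up to 12 with at least 50 UMIs, ranked by the interval bound nearest 0, beside the members described by protein and class. Members and lists were chosen with earlier results of these data known. Alternatives changed the cells, depth, denominator, free RNA, dividing rule and members. The ratio step was tested on simulated data. Sequences come from GENCODE vM21 (31011 of 31053 features matched) and RefSeq (61 of 67 genes matched).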

Additional observations from a re-analysis of the deposited data

Results flagged for a closer look

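The histone ratio of Jagged1/PyMT over PyMT pointed in opposite directions in dividing and non-dividing cells of 2 classes. In macrophage-like cells the log2 ratio was −0.70 (−0.699065) in dividing and 0.57 (0.571779) in non-dividing cells, and in T cell-like cells it was −0.32 (−0.318787) in dividing and 0.24 (0.243969) in non-dividing cells. Without Hist1h2ap the dividing T cell-like ratio was −0.000418. Monocyte-like totals were higher in Jagged1/PyMT in both states, at 405 and 253 CPM in non-dividing cells. The dividing totals were 3523 and 2468 CPM in 9 and 5 cells, but the median cell had 13 and 71 histone UMIs. Epithelial-like totals were lower in both states, with 2623 and 5012 CPM in 2 and 5 dividing cells. There 1 Jagged1/PyMT cell held 86 of 103 histone UMIs and 1 PyMT cell 109 of 221. Epithelial-like non-dividing cells, at −0.34 (−0.341117), lay opposite to the non-dividing macrophage-like, monocyte-like, mature dendritic cell-like, T cell-like and B cell-like cells. These differences between groups were not tested, since each genotype is 1 library, and the dividing PyMT groups hold 15 and 29 cells.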

How the results depend on the processing

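No paired analysis was possible because each matrix pools both samples of its genotype, and for the same reason leaving out a sample was not run. Depth limits single genes in PyMT macrophage-like cells (189 non-dividing and 15 dividing) and in every dividing group of fewer than 50 cells. The B cell-like dividing ratios were not run, with 1 and 0 dividing cells.

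The macrophage-like ratio of genotypes over all cells, 0.11, was −0.00217 without second lineage barcodes, 0.54 in cells thinned to 1000 UMIs, 0.55 as a mean of per-cell CPM and 0.49 without the cell with the most histone UMIs in each library. It was 0.57 in non-dividing cells, an alternative chosen after seeing the data, as were limiting the 3′ UTR correlation to annotated ends, leaving out Hist1h2ap and keeping only members with at least 50% unique 3′ ends. Those last 2 gave 0.37 and 0.48 for T cell-like cells (0.26) and 0.56 and 0.78 for B cell-like cells (0.45), and each of the other 10 alternatives moved neither ratio by more than its interval.

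The ratio of dividing over non-dividing cells stayed above 0 in all 42 alternatives run. In Jagged1/PyMT T cell-like cells (3.97) it was 4.33 without second lineage barcodes, 3.64 without mitochondrial and ribosomal UMIs in the denominator, 3.75 without the top cell, 3.82 and 4.12 with dividing set at 0.2% and 0.5%, 3.47 with dividing cells taken by Mki67 or Top2a, 3.40 without Hist1h2ap and 3.37 with unique members. In PyMT T cell-like cells (4.53) these were 4.45, 4.28, 4.35, 4.36, 4.66, 3.99, 3.68 and 3.43, with 4.41 in thinned cells and 4.64 as a per-cell mean. In Jagged1/PyMT macrophage-like cells (3.57) it was 3.62 without doublet-scored barcodes, 3.73 without second lineage barcodes, 3.36 thinned, 3.44 as a per-cell mean, 3.33 and 4.004 at 0.2% and 0.5%, 2.76 by Mki67 or Top2a, 2.84 without Hist1h2ap and 2.54 with unique members.

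Of 687 alternatives for genes named in these ratios, 592 stayed within counting error, 90 moved further and 5 changed sign, all in ratios of genotypes over all cells. Hist1h2ac in macrophage-like cells (−1.75) was 0.61 without second lineage barcodes and 0.60 without the top cells. In T cell-like cells Hist1h2bn (−2.21) was 0.21 and Hist1h2bb (−1.91) 0.58 without the top cells, and Hist1h2ab (1.35) was −0.54 in non-dividing cells only. Genotype ratios within dividing cells are not among these: there 4 of 12 named genes in macrophage-like and 6 of 12 in T cell-like cells changed sign without the top cells. The cause was not tested.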
